A study of Homo sapiens with 4 samples.

Results

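This report describes 10 transcription factors that set or maintain cell identity in epithelial and endodermal tissues, followed across 4 RNA-seq libraries of prostate cancer cells. They were NKX2-1, PAX9, SOX2, SOX9, FOXA1, FOXA2, GATA2, GATA3, TP63 and GRHL2. Members were picked by gene symbol, with no threshold on their values but with earlier results of these data known, and all 10 were found among the 35211 genes of the deposited count table.

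The libraries came from DU145 and PC3, established human cell lines derived from metastases of prostate cancer, to the brain and to bone respectively. Cells of each line carried either a negative control plasmid or one that overexpresses the circular RNA circ0003553, so every library came from transfected cells and none from untreated ones. Each of the 4 groups (a control and a circ0003553 group per line) held 1 library. There were therefore no replicates within a group, and the 2 libraries of a line differed in their plasmid.

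Lineage transcription factors bind DNA in a sequence-specific way and switch on the genes of one tissue while keeping those of others silent. FOXA and GATA proteins are pioneer factors, able to bind their sites in closed chromatin, and in the prostate FOXA1 and GATA2 act at enhancers of luminal genes. NKX2-1 is known from lung, thyroid and forebrain, PAX9 from the pharyngeal pouches, teeth and oesophagus, FOXA2 from endoderm and neuroendocrine cells, and TP63 from basal cells of stratified and glandular epithelia.

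Library totals ranged from 33438509 to 39488890 counts, so that 3 counts, taken here as the floor of detection, stood for 0.076 to 0.0897 CPM (counts scaled to the library total). Between 70.3% and 75.3% of the values from 1 to 20 were even numbers, as when a read pair is counted as 2, so counting intervals below are too narrow and those that matter are also given for halved counts. The 5 epithelial markers EPCAM, KRT8, KRT18, KRT19 and CDH1 were detected in all libraries, with summed RPKM (reads scaled to gene length and library total) of 1014 and 1184 in DU145 and 351 and 336 in PC3. Of the prostate markers, HOXB13 had 0, 2, 4206 and 4442 counts in the order control then circ0003553 in DU145, followed by the same pair in PC3, an order kept wherever 4 values are given, and TMPRSS2 had at most 10 counts in any library. Of the markers of other cell types, the leukocyte marker PTPRC had at most 2 counts and of the 6 fibroblast markers DCN and LUM had at most 8, while COL1A1, the one tested, had 216, 124, 1153 and 1519 and was higher in PC3 (log2 difference 3.09 ± 0.17), and the endothelial markers KDR and PECAM1 had 1564 and 1624, and 585 and 595, counts in PC3, beside at most 14 each in DU145. CD68, a lysosomal leukocyte marker, had 7688 to 20323 counts. STAT3, a gene that PC3 is known to lack, had 7479, 6160, 2 and 6 counts. RCAN3, the gene the sample titles name for the plasmid, had 639, 816, 1212 and 3798 counts, a log2 difference between plasmids of 0.95 (edgeR adjusted p = 0.0148), and counts per gene do not separate circular from linear RNA.

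The cell lines carried different leading members. NKX2-1 headed the order in DU145 and was listed at 0 in PC3, whereas FOXA2 headed the order in PC3 and stood sixth of 10 in DU145. By RPKM, which compares genes per length, the order in the DU145 control library was NKX2-1, FOXA1, SOX9, PAX9, GATA2, FOXA2, GATA3, TP63, GRHL2 and SOX2, and in the DU145 circ0003553 library it differed only in that SOX9 stood above FOXA1. In PC3 the order was FOXA2, SOX9, FOXA1, GATA2, PAX9, GATA3, SOX2 and TP63 in both libraries, with GRHL2 and NKX2-1 last. TPM values computed from the counts gave the same orders. In each library 5 members lay above 1 RPKM and the other 5 below 0.5, beside a median of 2.01 to 2.20 RPKM over 16688 protein-coding genes. NKX2-1 made up 50.9% and 47.4% of the summed RPKM of the 10 members in the DU145 libraries, and FOXA2 made up 66.7% and 68.1% in the PC3 libraries.

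**Figure D1:**
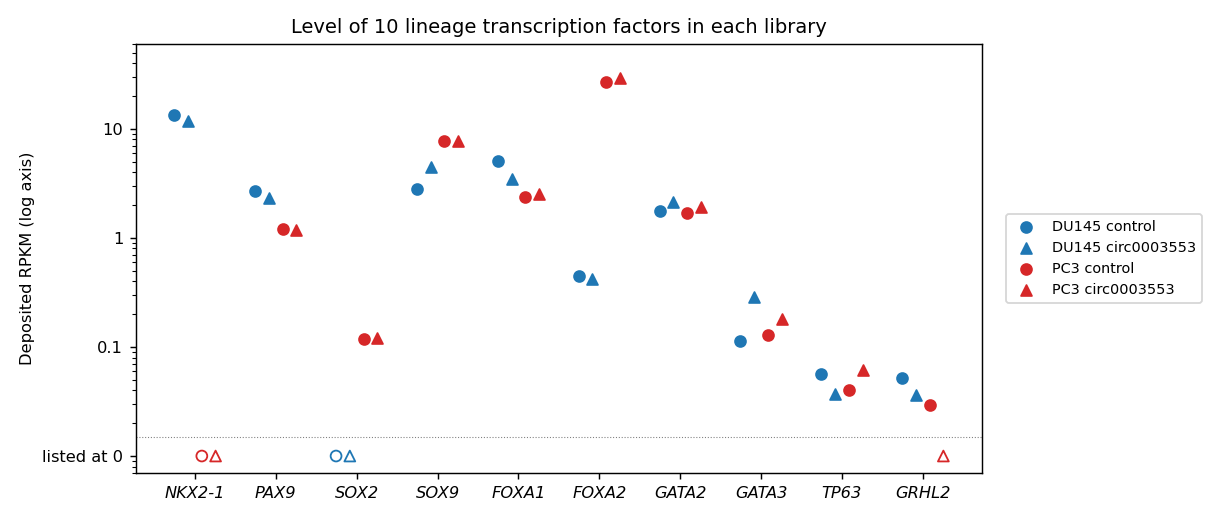
Deposited RPKM (log axis) of the 10 lineage transcription factors, with 1 point per library; circles are control and triangles circ0003553 libraries, blue is DU145 and red PC3, and open symbols under the dotted line are values listed at 0. NKX2-1 lies above 10 in DU145 and at 0 in PC3, FOXA2 lies near 28 in PC3 and near 0.4 in DU145, and GATA2, GATA3 and TP63 overlap between the lines.

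Differences between the lines were tested over all 4 libraries with edgeR's quasi-likelihood test, with terms for line and for plasmid and no interaction, in which the other plasmid's library serves as the line's second sample. The p-values were adjusted by Benjamini-Hochberg over the 21731 genes that passed a filter on low counts, a filter that 9 of the 10 members passed and GRHL2 did not. Of these 9, 6 differed at an adjusted p below 0.05, which is close to the background, since 66.0% of all genes tested did so. SOX2, SOX9 and FOXA2 were the 3 higher in PC3 (33.1% of all genes) and NKX2-1, PAX9 and FOXA1 the 3 lower (32.9%). SOX2 was listed at 0 in DU145 and NKX2-1 in PC3. Each could pass the filter only through the other line, so the filter fixed its direction. This holds too for the other tested genes below that were at 0 in one line. The median log2 difference (PC3 minus DU145) was -0.05 over the 9 members and 0.000991 over all genes tested. A lower value in a bulk library can mean fewer cells that express a gene or less RNA per cell, which cannot be told apart here.

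**Figure D2:**
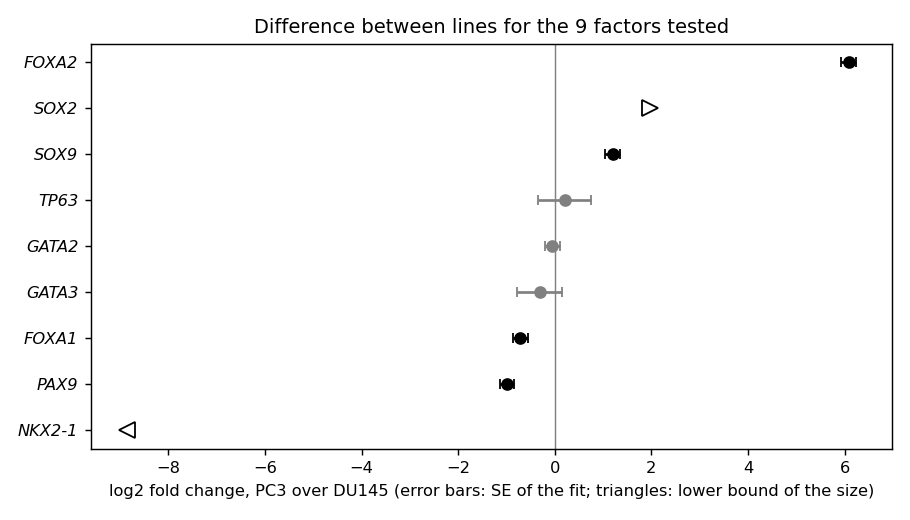
Log2 difference between the lines (PC3 minus DU145) of the 9 members tested, in edgeR, with bars of 1 standard error; black points were called and grey ones not, and open triangles give the least difference that the floor of 3 counts allows for genes listed at 0 in one line. FOXA2 lies at 6.08, the triangle of NKX2-1 stands for at least 461-fold higher in DU145, that of SOX2 for at least 3.93-fold higher in PC3, and GATA2, GATA3 and TP63 lie near 0.

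NKX2-1 is a homeodomain factor that drives surfactant and thyroglobulin genes in lung and thyroid. The gene lies on chromosome 14 (chr14:36516392-36521149, minus strand, hg38). It had 1627 and 1370 counts in the DU145 control and DU145 circ0003553 libraries, and 0 in both PC3 libraries. This corresponded to 12.7 ± 1.16 RPKM in DU145 (SD, n = 2) against a listed value of 0 in PC3, so the lines did not overlap. In DU145 the gene ranked above 84.1% and 82.2% of protein-coding genes. With 3 counts per library as the floor, NKX2-1 was at least 461-fold higher in DU145, or at least 230-fold if read pairs were counted as 2 (edgeR adjusted p = 1.75e-12).

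PAX9, a paired-box factor of foregut and tooth development, lies 136 kb from NKX2-1 (chr14:36657568-36679715, plus strand). Its counts were 613 and 507 in the DU145 control and circ0003553 libraries, and 244 and 279 in the corresponding PC3 libraries. Mean RPKM was 2.49 ± 0.259 in DU145 and 1.19 ± 0.0271 in PC3 (SD, n = 2 each). Both DU145 libraries were higher than both PC3 libraries, by a log2 difference (PC3 minus DU145) of -0.99 ± 0.14 (SE; edgeR adjusted p = 2.57e-05). PAX9 was thus lower in PC3 but detected there, unlike NKX2-1. Of its exon bases, 481 (7.97%) are shared with SLC25A21 on the other strand, and no strand setting of the counting is known here.

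FOXA1, the pioneer factor of luminal prostate and breast epithelium, lies on the same chromosome 910 kb from PAX9 (chr14:37589984-37596059, minus strand). It had 773 and 503 counts in the DU145 control and circ0003553 libraries, and 314 and 399 in the PC3 libraries. RPKM values were 5.10 and 3.46 in DU145 and 2.36 and 2.54 in PC3. The lines did not overlap, but the lower DU145 library stood nearer to PC3 than the control did. The fitted log2 difference was -0.71 ± 0.16 (SE; edgeR adjusted p = 0.000986). PC3 had 0.497 times the DU145 level among control libraries (95% exact binomial interval 0.434 to 0.567) and 0.752 times among circ0003553 libraries (0.658 to 0.859), intervals that cover counting error only.

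A stretch before a RefSeq transcript start (GRCh38.p14) of each of the 3 members on chromosome 14 that were lower in PC3 is shown to let their base composition be compared. The PAX9 stretch lies in front of the gene, whereas those of NKX2-1 and FOXA1 lie within the spans given above, before a start inside the gene. The stretches read 5′ to 3′ on the gene's strand, without bases that GENCODE places in an exon of the same gene. Exons of other genes were not removed. Capitals mark the GC box GGGCGG or its reverse complement CCGCCC. NKX2-1 is shown at chr14:36520287-36520482 (minus), PAX9 at chr14:36657318-36657567 (plus) and FOXA1 at chr14:37595349-37595499 (minus).
NKX2-1: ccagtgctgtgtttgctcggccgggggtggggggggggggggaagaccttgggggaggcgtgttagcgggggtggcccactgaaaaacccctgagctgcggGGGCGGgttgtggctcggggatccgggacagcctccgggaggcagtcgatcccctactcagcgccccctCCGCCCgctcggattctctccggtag
PAX9: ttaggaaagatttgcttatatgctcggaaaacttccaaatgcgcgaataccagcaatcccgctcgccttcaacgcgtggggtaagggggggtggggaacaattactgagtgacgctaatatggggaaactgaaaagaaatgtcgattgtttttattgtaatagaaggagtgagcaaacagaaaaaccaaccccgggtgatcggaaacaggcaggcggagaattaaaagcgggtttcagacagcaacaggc
FOXA1: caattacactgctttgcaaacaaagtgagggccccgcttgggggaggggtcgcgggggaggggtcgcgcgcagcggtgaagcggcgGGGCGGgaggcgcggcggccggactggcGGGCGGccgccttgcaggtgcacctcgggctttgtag

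Over the whole 250 bases before the start, 70.8% were G or C for NKX2-1 and 67.2% for FOXA1, against 46.8% for PAX9 and a median of 58.0% over 27303 RefSeq promoters. CpG dinucleotides numbered 18 in NKX2-1, 26 in FOXA1 and 13 in PAX9, beside a median of 11. The stretches shown hold 2 GC boxes in NKX2-1, 2 in FOXA1 and 0 in PAX9. RefSeq promoters were matched and searched for 7 members, which leaves SOX9, FOXA2 and GRHL2. Among the 7, GGGCGG occurred on either strand in 4 promoters and in 42.3% of all promoters, and CCAAT in 2 and in 33.0%. The letters CTCAAG, the core bound by NKX2-1, occurred in 1 of the 7, FOXA1, and in 10.4% of all. Letters of the forkhead motif TGTTTAC (2.98% of all promoters), the GATA motif AGATAA (9.37%), the SOX motif AACAATG (2.93%), the GRHL motif AACCGGTT (0.106%) and the TATA box TATAAA (11.1%) occurred in 0 of the 7. These are matches of letters in a short window and say nothing of binding.

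Genes around NKX2-1 and PAX9 were lower in PC3 as well. All 9 genes tested within 500 kb of NKX2-1, PAX9 among them, were called and all 9 were lower in PC3, where 32.9% of all genes tested were, and around PAX9 it was 9 of 10, most of them the same genes since the windows overlap. SFTA3, a gene 2.56 kb from NKX2-1, had 858 and 521 counts in DU145 but 0 in either PC3 library. The antisense gene NKX2-1-AS1 had 287 and 240 counts in DU145 and 0 in PC3, but it shares 402 exon bases with NKX2-1, so reads of the pair may not be separated. RP11-896J10.3, which also shares exon bases with NKX2-1, had 515 and 373 counts in DU145 and 0 in PC3. NKX2-8, a related homeodomain gene 59.4 kb away, had 82 and 62 counts in DU145 against 4 and 4 in PC3, a log2 difference of -4.01 ± 0.52 (edgeR adjusted p = 7.61e-06). SLC25A21, a mitochondrial carrier, had 1610, 1418, 36 and 34 counts (-5.32 ± 0.17), and MBIP had 3025, 3530, 868 and 1135 (-1.61 ± 0.11).

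Around FOXA1, 3 of 4 tested neighbours were called, near the 66.0% of all genes tested, and they did not share a direction. TTC6, which shares 16 exon bases with FOXA1, had 121, 98, 40 and 37 counts and was lower in PC3 (-1.39 ± 0.28). MIPOL1, 37.6 kb away, had 563, 550, 674 and 720 counts and was higher in PC3 (0.43 ± 0.13, edgeR adjusted p = 0.00833). DESeq2 did not make that call (adjusted p = 0.112), nor did edgeR once the PC3 control library was left out (0.136).

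**Figure D3:**
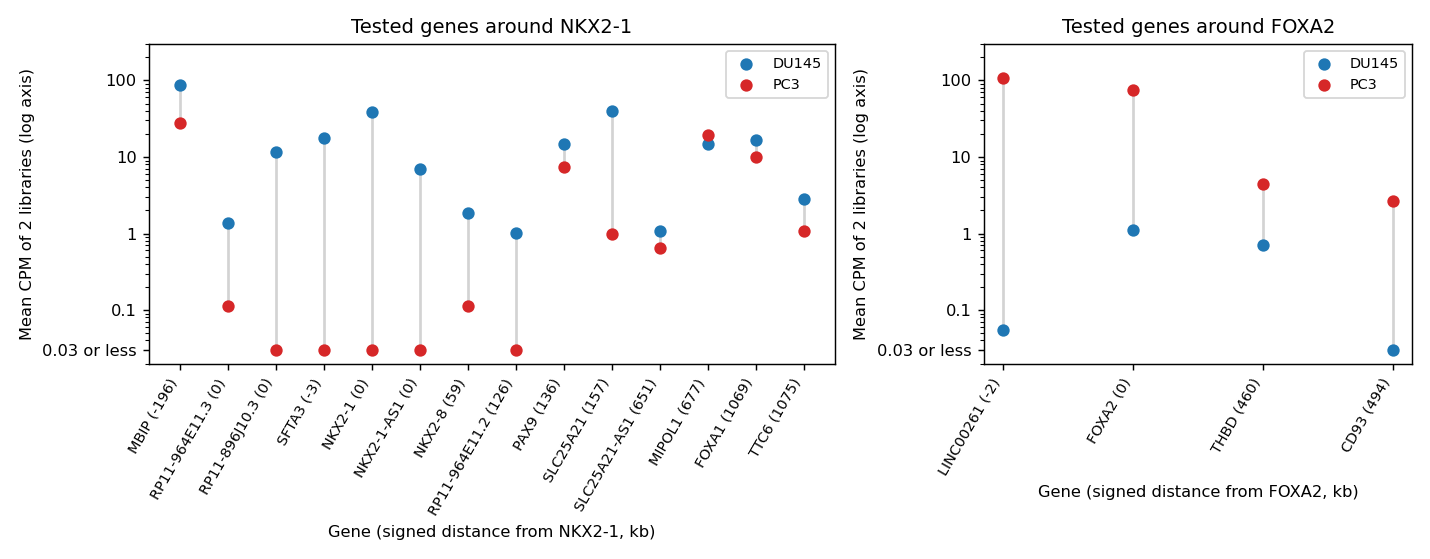
Mean CPM over the 2 libraries of each line (log axis, lowest tick 0.03 or less) of tested genes from NKX2-1 to FOXA1 and around FOXA2, in order along the chromosome, with the distance from NKX2-1 or FOXA2 in kb beside each name. Genes beside NKX2-1 lie lower in PC3, down to 0 counts for SFTA3, and LINC00261 beside FOXA2 lies higher in PC3, with 3774 and 3801 counts.

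FOXA2, a pioneer factor of endoderm, liver, lung and neuroendocrine cells, showed the reverse pattern to NKX2-1 (chr20:22581005-22585455, minus strand). It had 44 and 40 counts in the DU145 control and circ0003553 libraries, and 2326 and 3030 in the PC3 libraries. Mean RPKM was 0.433 ± 0.0161 in DU145 and 28.1 ± 1.95 in PC3 (SD, n = 2 each). Every PC3 value exceeded every DU145 value, and the gene ranked above 91.4% and 92.0% of protein-coding genes in PC3 but above only 30.0% in each DU145 library. The fitted log2 difference was 6.08 ± 0.15 (SE), a fold of 67.9 (edgeR adjusted p = 1.77e-13). The ratio of PC3 to DU145 was 64.7 among control libraries (95% exact binomial interval 48.0 to 89.2) and 71.8 among circ0003553 libraries (52.6 to 101), so the intervals overlapped.

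The FOXA pair thus switched order between the lines. FOXA1 exceeded FOXA2 by 11.5 and 8.22 times in RPKM in the DU145 control and circ0003553 libraries, and FOXA2 exceeded FOXA1 by 11.3 and 11.6 times in the PC3 libraries. FOXA3, the third member of the family, had at most 8 counts in any library and was not tested.

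The 3 neighbours of FOXA2 that were tested within 500 kb were all higher in PC3, as were 33.1% of all genes tested. LINC00261, a long non-coding RNA gene 2.36 kb away, had 0 and 4 counts in DU145 against 3774 and 3801 in PC3 (log2 difference 10.91 ± 0.27, edgeR adjusted p = 1.46e-13). THBD, encoding thrombomodulin, had 26, 28, 134 and 182 counts (2.63 ± 0.28). CD93 had 0, 0, 100 and 84 counts, a call that DESeq2 did not make (adjusted p = 0.0503). LINC00261 and CD93 had at most 4 counts in a DU145 library, so they could pass the filter on low counts only through PC3, where they were higher. THBD and CD93 are expressed in endothelium, and of the 5 endothelial markers KDR and PECAM1 were also higher in PC3, whereas VWF, CDH5 and TEK had at most 14 counts in any library; the summed RPKM of the 5 was 0.0653 and 0.148 in DU145 and 9.74 and 8.54 in PC3. The part of endothelial genes in the result for these neighbours was not tested.

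GATA2, a zinc-finger factor of blood stem cells and prostate epithelium, had nearly equal levels in both lines (chr3:128479427-128493185, minus strand). Its counts were 302 and 349 in DU145 and 250 and 340 in PC3. RPKM was 1.78 and 2.15 in DU145 and 1.68 and 1.93 in PC3, so the lines overlapped. The log2 difference was -0.05 ± 0.16 (SE; edgeR adjusted p = 0.787), and its sign changed when the DU145 circ0003553 or the PC3 control library was left out. The antisense gene GATA2-AS1, by contrast, had 171 and 166 counts in DU145 against 15 and 33 in PC3, a log2 difference of -2.72 ± 0.30 (edgeR adjusted p = 1.44e-06). The 2 genes share no annotated exon base.

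GATA3, a factor of luminal breast epithelium, urothelium and T cells, was low in all libraries (chr10:8053604-8075198, plus strand). It had 14 and 34 counts in DU145 against 14 and 23 in PC3, or 0.113, 0.287, 0.129 and 0.179 RPKM. The lines overlapped, and the log2 difference was -0.32 ± 0.46 (SE; edgeR adjusted p = 0.564). In RPKM, GATA2 exceeded GATA3 by 15.7 and 7.49 times in DU145 and by 13.0 and 10.8 times in PC3. All 4 genes tested within 500 kb of GATA3 (TAF3, ATP5C1, KIN and KRT8P37) were called and lower in PC3, beside 32.9% of all genes tested. Other windows were mixed or empty, beside the 66.0% called among all genes tested. Around GATA2 8 of 12 were called, 2 higher and 6 lower in PC3, and around SOX9 3 of 4, 1 higher and 2 lower. Around SOX2 0 of 2 were called, and around GRHL2 2 of 3, the 2 being higher.

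SOX9, a factor of cartilage and of progenitor cells in many epithelia, was the stronger SOX member (chr17:72121020-72126420, plus strand). Its counts were 419 and 640 in the DU145 control and circ0003553 libraries, and 1022 and 1214 in the PC3 libraries. RPKM was 2.80 and 4.46 in DU145 and 7.77 and 7.81 in PC3. The PC3 libraries were almost equal and both above DU145, where the 2 libraries differed from each other. The log2 difference between lines was 1.20 ± 0.15 (SE), a fold of 2.30 (edgeR adjusted p = 6.51e-06). PC3 exceeded DU145 by 2.98 times among controls (95% exact binomial interval 2.66 to 3.35) and by 1.80 times among circ0003553 libraries (1.63 to 1.98), and these intervals did not overlap.

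SOX2, a factor of pluripotent and neural cells and of foregut epithelium, was near the limit of detection (chr3:181711924-181714436, plus strand). It had 0 counts in both DU145 libraries and 10 and 12 in PC3, or 0.119 and 0.121 RPKM. With 3 counts per library as the floor, it was at least 3.93-fold higher in PC3, or at least 1.96-fold if read pairs were counted as 2 (edgeR adjusted p = 0.0019). DESeq2 did not call it (adjusted p = 0.0926), and with halved counts, or with one or the other PC3 library left out, it was too low to be tested. SOX2-OT, the long non-coding gene in which SOX2 lies, had 17, 6, 11 and 6 counts and did not pass the test (edgeR adjusted p = 0.742).

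TP63, whose ΔN isoform marks basal cells of prostate, skin and other epithelia, was barely detected (chr3:189631416-189897279, plus strand). It had 16 and 10 counts in DU145 against 10 and 18 in PC3, between 0.0368 and 0.0612 RPKM. The lines overlapped, with a log2 difference of 0.20 ± 0.55 (SE; edgeR adjusted p = 0.761). Counts per gene do not separate the isoforms. All 3 genes tested within 500 kb of TP63 were called and lower in PC3, beside 32.9% of all genes tested. P3H2, 59.4 kb away, had 245, 226, 117 and 132 counts (-0.81 ± 0.19). TPRG1, 306 kb away, had 53, 76, 26 and 41 counts (-0.87 ± 0.32). DESeq2 made neither of these 2 calls (adjusted p = 0.0677 and 0.341). The tight-junction gene CLDN1, 408 kb away, had 663, 761, 2 and 8 counts and was lower in PC3 (-7.04 ± 0.28, edgeR adjusted p = 2.13e-11). With at most 8 counts in a PC3 library, CLDN1 could pass the filter on low counts only through DU145.

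GRHL2, a grainyhead factor that maintains cadherin and tight-junction genes in epithelia, had 12 and 8 counts in DU145 against 6 and 0 in PC3 (chr8:101492432-101669726, plus strand). These were 0.0520, 0.0362, 0.0296 and 0 RPKM. Both DU145 values lay above both PC3 values, but all 4 were low and the gene was left out of the test by the filter. The ratio of PC3 to DU145 was 0.612 among controls (95% exact binomial interval 0.188 to 1.76) and 0 among circ0003553 libraries (0 to 0.555, or 0 to 1.44 with halved counts). With no filter on low counts GRHL2 was tested and not called, and it did not reach an unadjusted p below 0.05 in edgeR. With the PC3 control library left out, GRHL2 passed the filter through its DU145 counts alone, since the remaining PC3 library had 0. Its call as lower in PC3 in that fit had its direction fixed by the filter and rests on 1 PC3 library, so it is not read here.

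The plasmid comparison asked whether circ0003553 overexpression altered these factors. In the additive model 0 of the 9 members were called for plasmid, where 0.465% of all genes tested were (101 genes), and 0 of 9 had an unadjusted p below 0.05 in edgeR (8.88% of all genes tested). The same held with DESeq2, 0 called and 0 at an unadjusted p below 0.05. The smallest unadjusted p belonged to SOX9 (0.0519 in edgeR), with a log2 difference (circ0003553 minus control) of 0.32 ± 0.15 (SE, adjusted p = 0.567), and to GATA3 (0.06), with 0.96 ± 0.47 (adjusted p = 0.593). For NKX2-1 the log2 difference was -0.14 ± 0.17, for PAX9 -0.13 ± 0.14, for FOXA1 -0.24 ± 0.16 and for GATA2 0.25 ± 0.16.

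Within a line there was 1 library per plasmid, so ratios have no replicate check. SOX9 in DU145 was 1.64 times as high with circ0003553 as with the control plasmid (95% exact binomial interval 1.45 to 1.86), and in PC3 0.989 times (0.909 to 1.08). FOXA1 in DU145 was 0.699 times as high (0.623 to 0.783), and in PC3 1.06 times (0.910 to 1.23). NKX2-1 in DU145 had a ratio of 0.904 (0.841 to 0.972), an interval that took in 1 with halved counts. The DU145 interval of SOX9 lay above 1 and that of FOXA1 below it, and neither gene's PC3 interval did so.

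FOXA2 had ratios of 0.976 (0.620 to 1.53) in DU145 and 1.08 (1.03 to 1.15) in PC3. GATA2 was 1.24 (1.06 to 1.45) and 1.13 (0.959 to 1.34), and GATA3 2.61 (1.36 to 5.26) and 1.37 (0.675 to 2.88). Both PC3 intervals took in 1, as did that of GATA2 in DU145 with halved counts (0.996 to 1.56), and GATA3 had only 14 to 34 counts. Of the members with at least 50 counts over the 2 libraries of a line, 0 of 6 in DU145 and 0 of 5 in PC3 differed by 2-fold, where 2.02% and 1.15% of all such genes did.

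**Figure D4:**
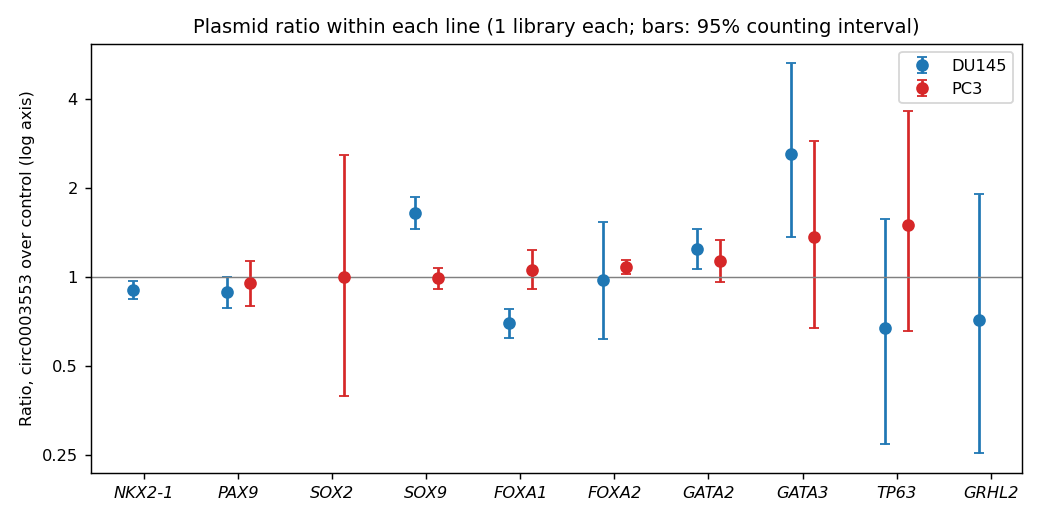
Ratio of the circ0003553 to the control library in each line (TMM-scaled, log axis) with 95% exact binomial intervals that cover counting error only; the line at 1 marks equal levels. In DU145, SOX9 (1.64) lies above 1 and FOXA1 (0.699) below it, the PC3 values of both lie near 1, and the intervals of GATA3 and TP63 are wide.

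Relatives of the members were followed in 2 lists, chosen by family and not by how they moved. Among NKX, PAX, FOXA, GATA, TP63 and GRHL relatives, 12 of the 20 found were tested, of which 3 were higher and 8 lower in PC3 and 1, TP73, was not called, with a median log2 difference of -1.16, where 33.1% of all genes tested were higher and 32.9% lower in PC3. PAX8, a kidney and thyroid factor, had 26, 32, 257 and 347 counts and was higher in PC3 (3.47 ± 0.24), and so were GATA6 (2.29 ± 0.25; 40, 63, 216 and 253 counts) and PAX6 (1.37 ± 0.16). NKX2-4 (20 and 32 counts), the closest relative of NKX2-1, and GATA4 (72 and 71) were at 0 in both PC3 libraries, and GRHL1 and GRHL3 were lower in PC3 (-1.16 and -3.35). These last 4 were singled out after their values were seen.

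In the SOX family 10 of the 14 genes found were tested, of which 7 were higher and 3 lower in PC3, with a median of 1.01, read beside the same 33.1% and 32.9% of all genes tested. SOX21, a relative of SOX2, had 6 and 4 counts in DU145 against 862 and 789 in PC3 (7.46 ± 0.27). SOX7, an endothelial and endodermal factor, had 8, 9, 422 and 570 counts (5.94 ± 0.27). SOX13 and SOX12, the latter the highest of the family list in mean RPKM, were higher in PC3 by 1.08 ± 0.11 and 0.94 ± 0.11 on the log2 scale, and SOX15 was lower (-2.47 ± 0.30). SOX17, an endoderm factor picked out after its values were seen, had 54 and 84 counts in DU145 and 0 in PC3.

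**Figure D5:**
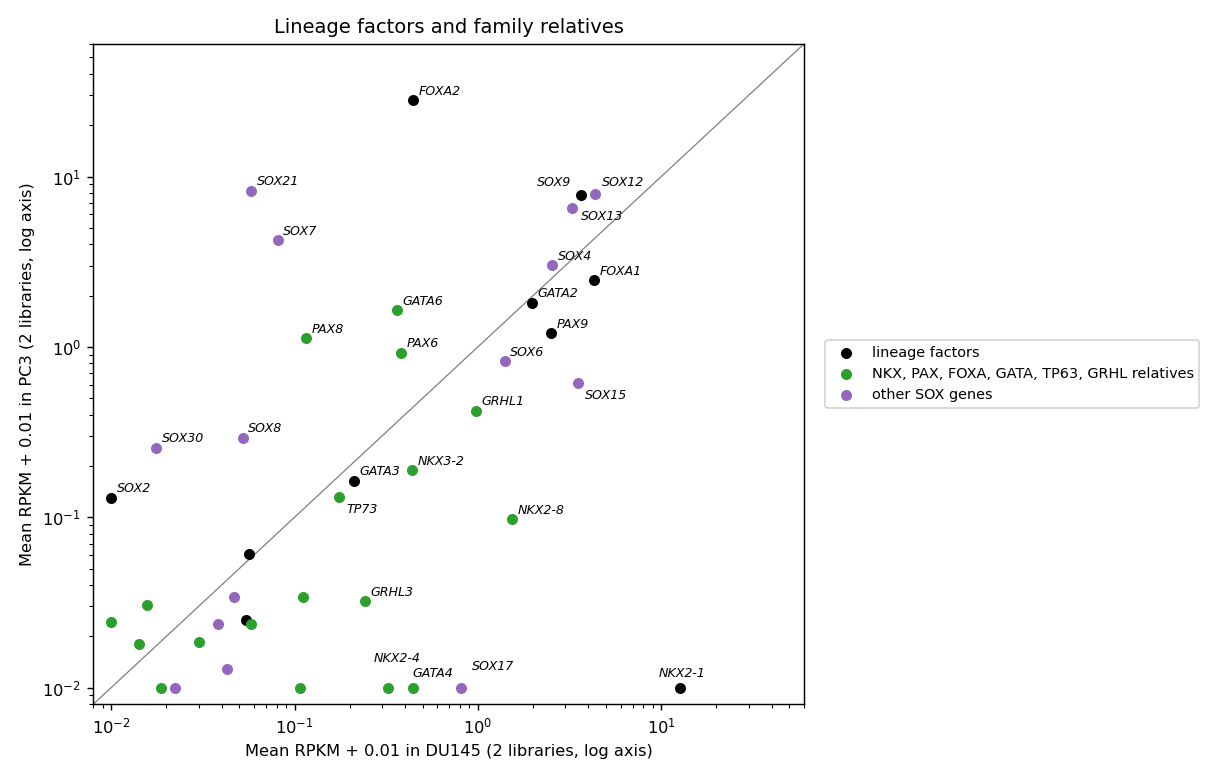
Mean deposited RPKM + 0.01 of the members (black) and of the family relatives reported here (green, purple) in DU145 and PC3, 2 libraries each, both axes log; the diagonal marks equal levels. FOXA2, SOX21, SOX7 and PAX8 lie above the diagonal, NKX2-1, SOX17 and GATA4 below it, and GATA2 on it.

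Tissue genes that these factors are known for were mixed in direction, and their counts, here and in the next lists, stand beside the 33.1% higher and 32.9% lower of all genes tested. Of 14 lung and thyroid genes 6 were tested: 1, LAMP3, was higher in PC3 (1.39 ± 0.14), 3 were lower and 2 were not called, with a median of -0.56. ABCA3 was lower in PC3 (-0.42 ± 0.12; 878, 992, 567 and 737 counts), a call that DESeq2 did not make (adjusted p = 0.0731) and that edgeR lost when any of 3 libraries was left out. Of 18 endoderm, gut and liver genes found 12 were tested, with 6 higher, 4 lower and 2 not called. AGR2, known as a target of FOXA factors, was at 0 in DU145 and had 420 and 624 counts in PC3, at least 185-fold higher. SERPINA1 was lower in PC3 (-1.32 ± 0.10) and HNF4G higher (2.72 ± 0.27).

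Of 16 luminal prostate genes found 13 were tested, 6 higher and 7 lower in PC3 (33.1% and 32.9% of all genes tested), with a median of -0.44. HOXB13 (12.01 ± 0.27) and SPDEF (2.81 ± 0.19) were higher in PC3, and the luminal keratins KRT8 (-2.53 ± 0.12) and KRT18 (-1.97 ± 0.11) were lower. Of 22 basal epithelial genes 20 were tested, 5 higher, 6 lower and 9 not called, with a median of -0.06, beside the 66.0% called among all genes tested. Without the DU145 control library 3 were higher and 8 lower, without DU145 circ0003553 7 and 6, and with one or the other PC3 library left out 3 and 6. PKP1, a desmosome gene, had 44, 60, 9467 and 12045 counts (7.79 ± 0.15) and BNC1 had 3565, 3612, 98 and 132 (-4.87 ± 0.13), so basal genes went both ways. Whether any of them depends on TP63 in these lines was not tested.

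Of 22 epithelial genes linked to GRHL2, 19 were tested, 5 higher, 12 lower and 2 not called, with a median of -0.96, beside 33.1% higher and 32.9% lower among all genes tested. E-cadherin, CDH1, had 4821 and 2478 counts in DU145 against 84 and 108 in PC3 (-5.06 ± 0.18), P-cadherin, CDH3, had 6732, 4901, 152 and 145 (-5.17 ± 0.12), MARVELD3 had 212, 266, 4 and 10 (-5.00 ± 0.35) and ST14 had 288, 320, 12 and 15 (-4.39 ± 0.28). Among those higher in PC3, picked out after their values were seen, CLDN4 had 169, 199, 1981 and 2990 counts (3.84 ± 0.12) and ESRP1 153, 151, 507 and 599 (1.96 ± 0.16). DU145 had 4821 and 2478 counts of CDH1 and 12 and 8 of GRHL2. Whether any of these genes depends on GRHL2 in these lines was not tested. Across these lists 0 genes were called for plasmid in edgeR.

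The genes most like a member were sought by the Euclidean distance of log2(RPKM + 0.1) over the 4 libraries among 16687 protein-coding genes, as a description of likeness only. For NKX2-1 they were EIF1AY, HRASLS and ZNF512 at distances of 0.0396, 0.304 and 0.577, and only 2 genes lay within 0.5. For FOXA2 they were ARHGDIB, FSTL1 and LTBP1, the nearest of them at 0.787, and 0 genes lay within 0.5. SOX9 had 26 genes within 0.5, led by PIGC, FERMT1 and MRPL35, and GATA3 had 15, with AC124312.1 and LYZ the nearest. PAX9 had 116 (ASAH1, TBCEL and RABL2B the nearest), FOXA1 128 (BTN3A2, ABCB6 and HINT3), TP63 124 (FPR3, TBC1D3B and LMAN1L) and GATA2 221 (MNT, PLEKHO1 and PAPOLG). By this measure, which compares absolute levels as well as patterns, few genes lay near NKX2-1 and FOXA2 and many near GATA2 and FOXA1. In edgeR the line difference of FOXA2 (6.08) was larger in size than that of 94.8% of the 21731 genes tested. A larger one in either direction was fitted for 1125 genes. These include genes listed at 0 in one line, whose fitted size has no upper limit in the counts. SOX2 is among them, with 6.53 in the fit but a bound of at least 3.93-fold.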

How the data were processed

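RNA of 4 libraries, 1 per group, was measured by rRNA-depleted, stranded sequencing with 8-base molecular identifiers, per the labels' protocols. Tools named in the submitters' processing notes are featureCounts, Subread 1.5.1, Trimmomatic 0.36 and edgeR 3.12.1, with the build hg38. No aligner, strand setting or collapsing of identifiers is given in the sources used here. Raw counts of each gene and their RPKM were deposited by the authors; the deposited RPKM equalled counts per gene length and library total to within a relative difference of 1e-06. Of the columns, those marked NC were read as negative control and the others as circ0003553.

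The members, gene lists and tests were chosen with earlier results of these data known. Counts were fitted with edgeR 4.0.16 (R 4.3.3): TMM scaling, filterByExpr by plasmid, line and plasmid as additive terms, quasi-likelihood F tests with 1 residual degree of freedom and Benjamini-Hochberg adjustment over 21731 genes at a threshold of 0.05. TMM factors were 0.967 to 1.04. Because nothing says that the libraries came from separate cultures, p-values measure only the spread between these libraries. For each gene edgeR takes most of that spread from the other genes, with 13.4 prior beside 1 residual degree of freedom. Ratios of 1 library to another have 95% Clopper-Pearson intervals. Levels are deposited RPKM or counts. Named genes were every member, up to 4 called genes with the largest line difference and a mean log2 CPM of at least 1 from each list, the highest in RPKM of each family list, up to 3 called neighbours nearest to each member within 500 kb, and the 3 most like genes. Genes named otherwise are said to be so, and some genes that the rule names are not reported here. A further 118 genes whose exons lie scattered over loci were not used as neighbours. Alternatives were RLE and total-count scaling, no filter, legacy dispersions, halved counts, genes sharing no exon base, no replicate block, DESeq2 1.42.0, limma-voom (limma 3.58.1) and leaving out each library. Promoter sequences came from RefSeq (GRCh38.p14) and exons and gene types from GENCODE release 29; types were found for 69.0% of genes.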

Additional observations from a re-analysis of the deposited data

Results flagged for a closer look

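For 4 members the circ0003553 library lay on one side of the control in DU145 and on the other side in PC3. The ratio of circ0003553 to control was 1.64 in DU145 and 0.989 in PC3 for SOX9, and 0.699 and 1.06 for FOXA1. It was 0.976 and 1.08 for FOXA2, and 0.671 and 1.50 for TP63. The counting interval excluded 1 in DU145 for SOX9 and FOXA1, in PC3 for FOXA2 and in neither line for TP63, which had 10 to 18 counts. With 1 library per group the difference between the lines was not tested for any of the 4.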

How the results depend on the processing

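Over the alternatives, NKX2-1, PAX9, SOX9, FOXA1 and FOXA2 kept their direction and their call between lines wherever they were tested. SOX2 was called with every tool and scaling except DESeq2. The number of members called between lines, 6 of 9, was 3 of 6 among genes sharing no exon base, a setting that leaves out NKX2-1, PAX9 and FOXA1. Without the PC3 control library SOX2 was too low to be tested. GRHL2 then entered through its DU145 counts alone, and its call as lower in PC3, fixed in direction by the filter, is not read here. With no filter on low counts GRHL2 was tested and not called. Over all genes, 7040 of the 10797 tested were called among genes sharing no exon base, beside 14332 of 21731 in the main fit, so the share hardly changed. For plasmid, 0 members were called in every setting. Over all genes, the 101 of 21731 called became 9 of 35211 without the filter and 48 of 10797 among genes sharing no exon base. With 21731 tested, 53 were called with legacy dispersions, 62 with DESeq2, 26 with limma-voom and 0 with no replicate block (26 at an unadjusted p below 0.05 in edgeR). The block was the cell line, since the labels give no replicate numbers that pair libraries. At an unadjusted p below 0.05, 1 member appeared with RLE scaling (SOX9) and 1 with halved counts (GATA3).

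Signs turned only for differences not called. Over fits that left out 1 library, the log2 difference between lines ran from -0.20 to 0.11 for GATA2, from -0.83 to 0.55 for GATA3, from -0.13 to 0.52 for TP63 and from -0.16 to 0.36 for XBP1. Without the DU145 circ0003553 library the log2 difference between lines was 0.11 for GATA2, 0.55 for GATA3 and -0.04 for TP63. It was 0.04 for GATA2 without the PC3 control and -0.13 for TP63 without the PC3 circ0003553 library. XBP1 gave 0.11 over all libraries, -0.08 without the DU145 control and -0.16 without the PC3 circ0003553 library. The plasmid difference of SOX2 was 0.0226 with total-count scaling, 0.00861 without the filter, 0.00561 among genes sharing no exon base, 0.11 with no replicate block and 0.0288 with limma-voom. The cause was not tested for any of these. Of the lists, lung and thyroid genes had 4 called in edgeR and 2 with DESeq2. The genes lower in PC3 with DESeq2 were 2 rather than 4 in the endoderm list. Among genes sharing no exon base fewer were tested, beside 7040 of 10797 called over all genes. There 7 of 7 family relatives (11 of 12 in the main fit), 6 of 6 SOX genes (10 of 10) and 8 of 9 genes linked to GRHL2 (17 of 19) were called. So were 2 of 2 urothelial genes (5 of 6) and 3 of 4 genes of epithelial-mesenchymal transition (8 of 9). Depth limits SOX2, GATA3, TP63 and GRHL2, which had at most 34 counts in any library.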

Other observations

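Further lists hold genes known for tissues in which these factors act, and their counts stand beside the 33.1% higher and 32.9% lower in PC3 among all genes tested. Of 8 cartilage genes found, 5 were tested, 4 were higher in PC3 and 1 was not called, with a median log2 difference (PC3 minus DU145) of 1.33. COL11A2, a cartilage collagen and known SOX9 target, had 109 and 105 counts in DU145 against 207 and 299 in PC3 (1.33 ± 0.20), and COL9A2 had 91, 93, 171 and 154 (0.93 ± 0.23), a call that DESeq2 did not make (adjusted p = 0.0995) and that edgeR lost once the PC3 control library was left out (adjusted p = 0.0651). Of 9 urothelial genes 6 were tested, 1 higher, 4 lower and 1 not called, and 2 were higher when one or the other DU145 library was left out. KRT7, a simple-epithelium keratin, had 47531, 52875, 4536 and 5055 counts (-3.28 ± 0.12), and PPARG, a nuclear receptor of urothelium and fat, had 317, 333, 1445 and 1810 (2.42 ± 0.12).

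Of 12 neural and neuroendocrine genes found, 7 were tested, 3 higher, 2 lower and 2 not called, and 1 rather than 2 was lower without the DU145 control or the PC3 circ0003553 library. POU3F2, a neural factor, had 4, 6, 258 and 244 counts (5.73 ± 0.37), NES, which encodes nestin, was higher in PC3 (3.20 ± 0.10), and SALL4, a factor of pluripotent cells, was lower (-2.90 ± 0.27). All 9 genes of the list of epithelial-mesenchymal transition were tested, 6 higher, 2 lower and 1 not called. TWIST1 was at 0 in DU145 and had 383 and 574 counts in PC3, at least 169-fold higher. N-cadherin, CDH2, had 0, 2, 1294 and 1562 counts (10.41 ± 0.32), and SNAI2 had 74, 168, 728 and 1251 (3.14 ± 0.18). Vimentin, VIM, was lower in PC3 (-0.88 ± 0.10). In edgeR, 0 of the genes tested in these lists were called for plasmid.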
